A study of Mus musculus with 4 samples.

Results

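The 50 genes described here build and run mitosis: cyclins and kinases that drive entry, the checkpoint that watches chromosome attachment, kinetochores, spindle motors, the cytokinesis machinery and condensin. They were taken from a list of gene names that was chosen with earlier results of these data known. Each was read from the probe set of that name with the highest mean signal over the 4 arrays. Of the 50, 49 had a probe set named in the platform annotation (Ccnb1 was not analysed here), and 48 passed the filter on dim probe sets and were tested among 12111 genes. Kif15, a spindle kinesin, was the dim one, at 38.5 and 50.3 in samples titled wild-type and 30.1 and 23.1 in those titled Foxo1/3-deficient.

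The arrays held RNA of splenic CD4+Foxp3+ regulatory T (Treg) cells, the T cells that restrain other immune cells, from C57BL/6 mice. Of the 4 arrays, 2 were titled wild-type and 2 Foxo1/3-deficient, lacking by title the transcription factors Foxo1 and Foxo3, while the genotype field of the second group names Foxo1 only. The titles number 2 pairs, each with 1 array of either genotype, so replicate 1 of a group belongs to pair 1 and replicate 2 to pair 2. The sources used here do not give the promoter behind the deletion, the age and sex of the mice, any pooling or what a pair shared. The p-values therefore measure only spread between these arrays, which may be technical. For each gene that spread was estimated mostly from a model shared over all genes (5.67 degrees of freedom, against 2 from the gene itself). With the pair added to the fit these were 19.14 and 1.

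Of the genes named in the titles, Foxo1 went against the label and Foxo3 with it. Foxo1 was read from the brightest of its 4 probe sets, and the others are not given here. It read 2383 and 1254 in samples titled wild-type, against 6949 and 6697 in those titled Foxo1/3-deficient (log2 difference 1.97 ± 0.30 SE, limma adjusted p = 0.0210). Foxo3 read 1876 and 2635 against 1424 and 1308 (-0.70 ± 0.24 SE, limma adjusted p = 0.2415, and 0.00963 with the pair added to the fit). Klf2, Il7r and Ccr7, which FoxO1 is known to activate in T cells, were higher on the arrays titled Foxo1/3-deficient (log2 1.29, 1.30 and 3.07, limma adjusted p = 0.0208, 0.0260 and 0.0170). The sources used here do not say where the Foxo1 probe sets lie relative to the deleted part, so a probe outside it would check nothing. The arrays are therefore called labelled-wild-type and labelled-deficient below, and every direction is that of the titles. Whether the titles were exchanged was not tested. If they were, every direction given here would turn, and the mitosis genes would be about 2-fold higher, not lower, in the deficient cells.

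In a dividing cell most of these transcripts are made late, in G2 phase and mitosis, and are lost again afterwards, so their level in a cell population follows how many cells are dividing. In resting cells a repressor complex called DREAM keeps their promoters silent. DREAM and the activators that replace it, B-MYB and FOXM1, meet the promoter at a short element, the CHR, and a CCAAT box bound by NF-Y often lies just upstream. Treg cells are known to hold a dividing fraction, mostly among activated cells. In RNA from a bulk sample, fewer dividing cells and less RNA per dividing cell cannot be told apart.

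The promoters are shown first. Their letters were not read to choose the genes, but promoters of such genes are known to carry the CHR, as said above. The shares of these letters are therefore a description and not a test. RefSeq promoter windows of the GRCm38.p6 build, from 250 bases before to 50 after an annotated start, were at hand for 42 of the 50 genes, in 46 windows. The 5 printed here belong to the genes with a window whose smaller within-pair difference was furthest below 0, on the scale defined further on. Each runs from 100 bases before to 30 after the start, with the CHR letters TTTGAA and the CCAAT letters, on either strand, in capitals (ATTGG is CCAAT on the other strand).

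Cdk1, chr10:69352883-69353012, minus strand: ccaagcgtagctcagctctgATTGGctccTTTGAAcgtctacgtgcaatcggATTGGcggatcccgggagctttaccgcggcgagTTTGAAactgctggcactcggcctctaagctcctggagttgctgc

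Hmmr, chr11:40733408-40733537, minus strand: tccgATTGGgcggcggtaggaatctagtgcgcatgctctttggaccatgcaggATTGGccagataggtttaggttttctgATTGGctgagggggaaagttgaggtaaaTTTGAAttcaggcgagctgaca

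Cdca5, chr19:6084997-6085126, plus strand: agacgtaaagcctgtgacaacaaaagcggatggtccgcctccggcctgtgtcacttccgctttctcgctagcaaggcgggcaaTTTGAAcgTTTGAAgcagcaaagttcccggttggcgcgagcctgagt

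Cenpe, chr3:135212463-135212592, plus strand: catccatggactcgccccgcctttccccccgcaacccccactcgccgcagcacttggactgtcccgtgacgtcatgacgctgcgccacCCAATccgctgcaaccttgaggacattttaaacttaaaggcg

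Spc25, chr2:69206184-69206313, minus strand: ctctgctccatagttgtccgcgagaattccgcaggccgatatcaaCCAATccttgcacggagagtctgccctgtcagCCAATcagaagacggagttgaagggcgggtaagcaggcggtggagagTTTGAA

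Cdk1 carried TTTGAA at -71 to -66 and again at -15 to -10, with ATTGG at -80 to -76 and -48 to -44. In Cdca5 a pair of TTTGAA runs stood side by side at -17 to -12 and -9 to -4. Hmmr and Spc25 had theirs after the annotated start, at 9 to 14 and 25 to 30. Cenpe held a CCAAT run at -12 to -8 but not these CHR letters.

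TTTGAA or its reverse complement TTCAAA lay in 33 of the 46 windows (71.7%), against 17.9% of all 32851 windows. Within 50 bases of the start the shares were 65.2% (30 windows) and 4.94%. There the 32 matches of the mitosis genes read in the direction of the gene in 24 cases and against it in 8. CCAAT or ATTGG lay in 36 of the 46 windows (78.3%), against 37.4% of all windows. The FoxO letters GTAAACA or TGTTTAC lay in 3 windows (6.52%), of Cenpk, Ect2 and Nuf2, against 3.65% of all. Of the 40 tested genes with a window, 27 had a CHR match near the start, with a median log2 difference of -1.07 (-1.38 to -0.40), and 13 did not, with a median of -1.15 (-1.32 to -0.86). A match is a run of letters and not a shown binding site, and matches of different motifs were counted separately even where they might share a base.

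**Figure D1:**
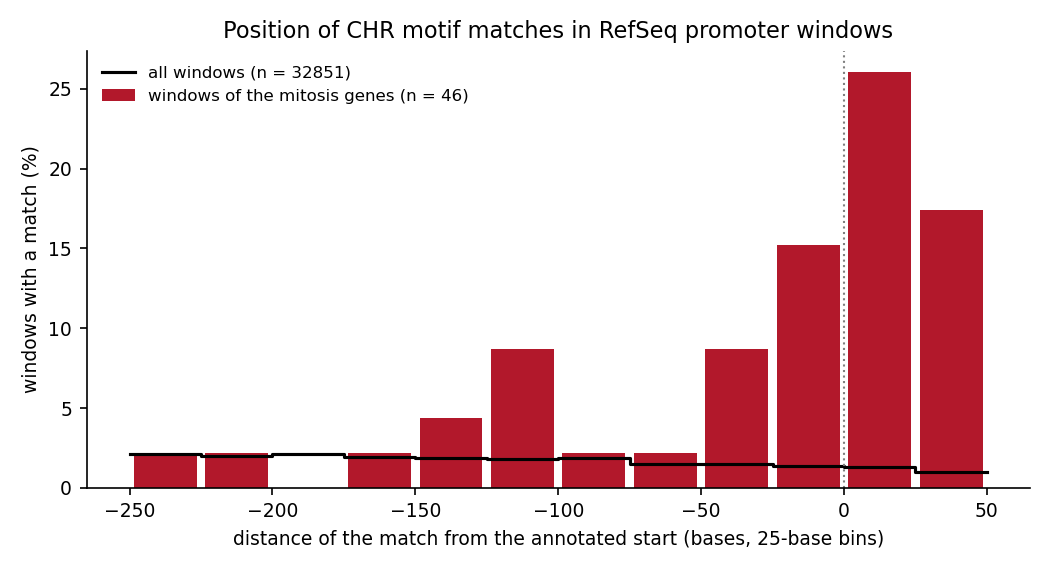
Position of CHR motif matches (TTTGAA on either strand) in RefSeq promoter windows. The horizontal axis is the distance from the annotated start in bins of 25 bases, the bars give the percentage of the 46 windows of the mitosis genes and the line that of all 32851 windows. The bar just after the start reaches 26.1% where all windows stand at 1.31%.

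The comparison of genotypes asked what Treg cells express without Foxo1 and Foxo3. The mitosis genes stood lower together on the labelled-deficient arrays, by about 2-fold. On the log2(signal + 17) scale, on which every difference here is given, 47 of the 48 tested genes lay below 0, and their median was -1.10 (2.15-fold lower), against 0.00 for all genes tested, of which 50.3% lay below 0. The differences were alike in size, with quartiles of -1.22 and -0.98. For 46 of 48 (95.8%) both labelled-deficient arrays lay below both labelled-wild-type arrays, which held for 21.1% of all genes. Smc4 alone lay above on both arrays, an order that 20.0% of all genes had.

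The fit without the pair called 12 of the 48 lower (limma, adjusted p below 0.05 over all genes), where 1.37% of all genes were called, and 0 higher, where 1.23% were. At an unadjusted p below 0.05, 45 were lower and 1 higher, and 7.04% of all genes were lower. With the pair as a block 45 were lower and 1 higher, against 6.66% and 5.54% of all genes. Without a test, 46 of 48 were at least 1.5-fold lower in both pairs (5.77% of all genes), and 17 at least 2-fold (2.33%). The 12 calls rested on small margins. Without labelled-deficient replicate 1, 0 of the 48 passed and 38 were lower at an unadjusted p below 0.05; without labelled-deficient replicate 2, 4 passed, 3 of them among the 12. Without labelled-wild-type replicate 1, 19 passed, 7 of them among the 12, and without labelled-wild-type replicate 2, 11, with 6 among the 12. Without the filter 2 passed, when every probe set was tested 4, and without the intensity trend 0 (45 at an unadjusted p below 0.05).

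**Figure D2:**
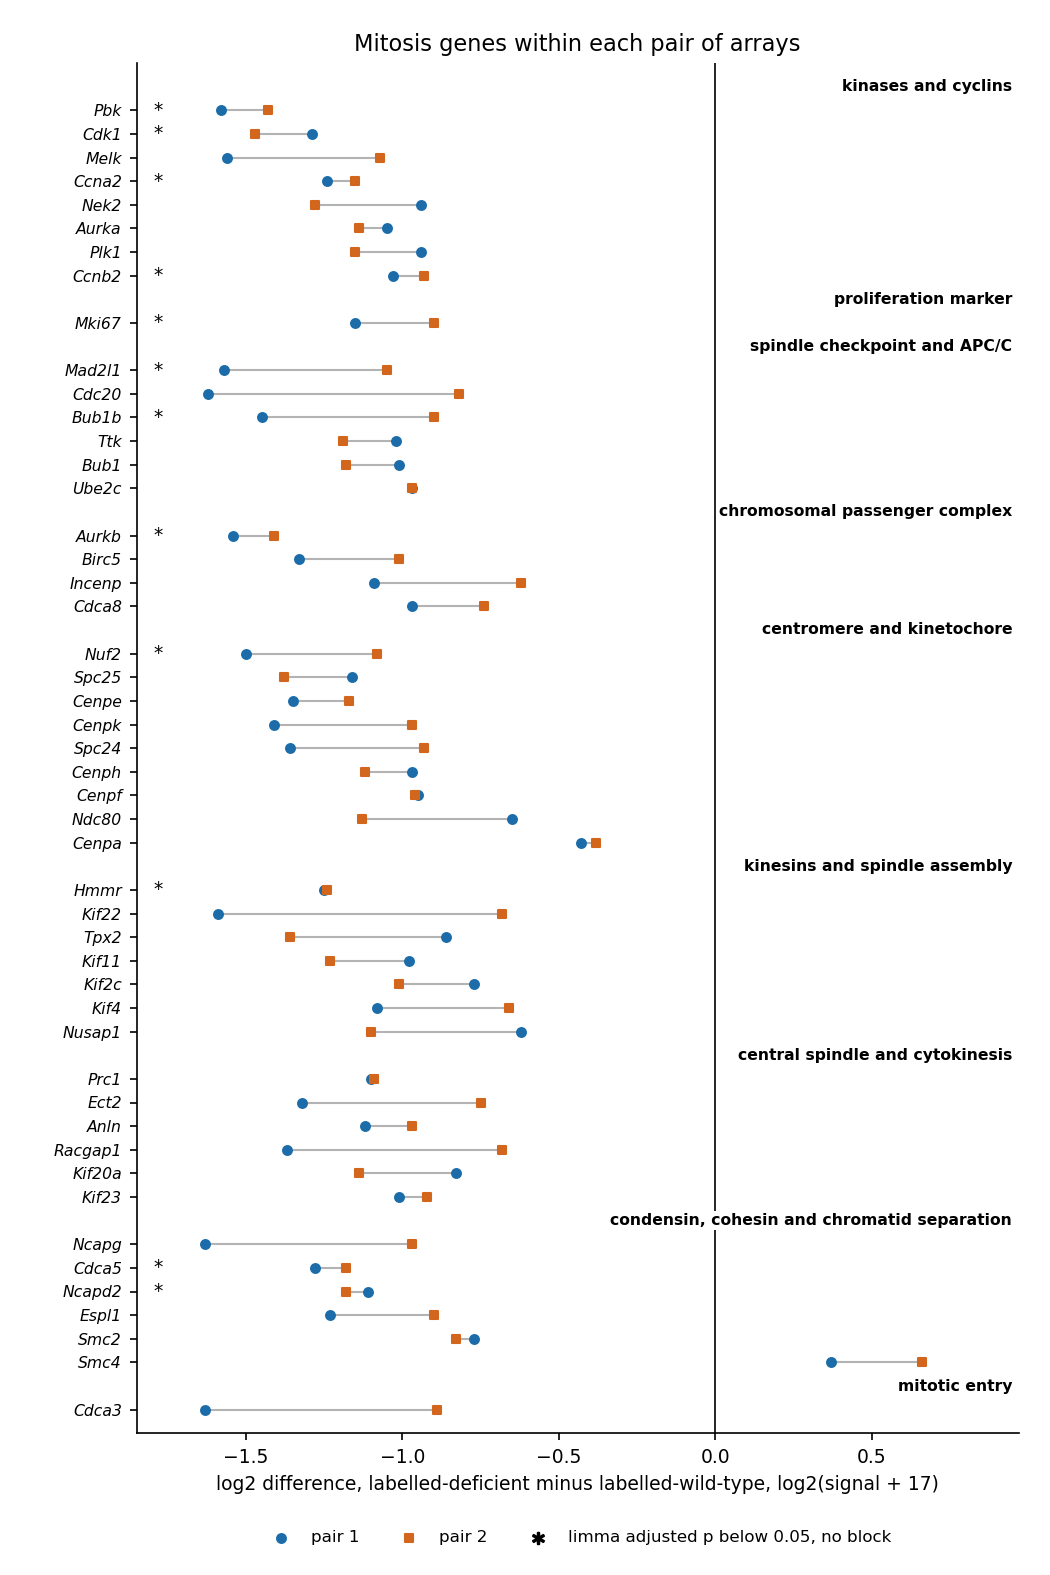
Log2 differences of the 48 tested mitosis genes within pair 1 (circles) and pair 2 (squares), labelled-deficient minus labelled-wild-type on the log2(signal + 17) scale, grouped by role. Asterisks mark the 12 genes past the threshold in the fit without the pair; 46 genes lie at least 1.5-fold below 0 in both pairs, Cenpa lies nearer to 0 and Smc4 above it.

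Among the kinases and cyclins that drive cells into mitosis, 4 of the 8 tested fell and all 8 did with the block. Over all genes the shares were 1.37% and 6.66%, the background for every role group below. Pbk, a mitotic kinase, went from 2033 and 2147 on the labelled-wild-type arrays of pairs 1 and 2 to 668 and 786 on the labelled-deficient ones (log2 -1.51 ± 0.22 SE, limma adjusted p = 0.0201), the lowest value of all tested members. Cdk1, the kinase that starts mitosis, went from 2171 and 2273 to 880 and 808 (-1.38 ± 0.22, limma adjusted p = 0.0227). Its partners fell too: Ccna2, which encodes cyclin A2, went from 3382 and 2706 to 1420 and 1207 (-1.20 ± 0.23, limma adjusted p = 0.0410). For cyclin B2, Ccnb2 went from 3538 and 3272 to 1724 and 1714 (-0.98 ± 0.20, limma adjusted p = 0.0498). In each of these the arrays of a label lay close together and the labels did not overlap. Both labelled-deficient arrays lay below both labelled-wild-type arrays for 21.1% of all genes.

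The other 4 kinases had differences of like size but missed the threshold without the block. Aurka, the kinase of spindle poles, read 1024 and 1328 against 487 and 594 (-1.09 ± 0.26, limma adjusted p = 0.0814, and 0.000384 with the block). Plk1, which acts from mitotic entry to cytokinesis, read 832 and 1037 against 424 and 460 (-1.05 ± 0.25, limma adjusted p = 0.0875, and 0.00114 with the block). Nek2, a centrosome kinase, read 1272 and 1710 against 655 and 693, and Melk 1395 and 1503 against 463 and 706. Melk stood at log2 -1.32, lower than the called cyclins, with its labelled-deficient arrays further apart.

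Mki67, which encodes the Ki-67 protein that coats mitotic chromosomes and marks dividing cells, had nearly equal labelled-wild-type arrays. They read 13243 and 13257, and the labelled-deficient arrays 5977 and 7079, a fall of 2.03-fold (-1.02 ± 0.17, limma adjusted p = 0.0304). Cdca3, a trigger of mitotic entry, read 1796 and 1202 against 568 and 642, so its difference was -1.63 in pair 1 and -0.89 in pair 2.

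The spindle checkpoint delays separation of the chromatids until every chromosome is attached, by holding Cdc20 away from the ubiquitin ligase APC/C. Of its 6 genes 2 fell and all 6 did with the block. Mad2l1, which encodes the inhibitor MAD2, went from 4746 and 5228 to 1587 and 2520 (-1.31 ± 0.26, limma adjusted p = 0.0449). Bub1b, which encodes BUBR1, went from 2441 and 2144 to 881 and 1143 (-1.18 ± 0.23, limma adjusted p = 0.0484). The kinases Bub1 (921 and 1048 against 447 and 452) and Ttk (433 and 507.5 against 204 and 212) stood at -1.10 and -1.11. On both, the 2 labelled-deficient arrays were nearly equal.

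The other members of this group act in the APC/C step that the checkpoint holds back. Cdc20, the APC/C activator, read 5887 and 8587 against 1900 and 4864 (-1.22 ± 0.41, limma adjusted p = 0.226, and 4.91e-05 with the block). Its labelled-deficient array of pair 2 came near the labelled-wild-type array of pair 1 without reaching it. Ube2c, the ubiquitin-conjugating enzyme of the APC/C, read 1775 and 1310 against 900 and 659 and had the same difference, -0.97, in both pairs.

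The chromosomal passenger complex corrects faulty attachments and then moves to the cell's midzone. Aurkb, its kinase, fell from 1777 and 1556 to 598 and 574 (-1.48 ± 0.23, limma adjusted p = 0.0223). Of the 4 genes it alone passed without the block and all 4 passed with it. Birc5, which encodes survivin, read 2394 and 1095 against 943 and 535 (-1.17 ± 0.41, limma adjusted p = 0.253, and 9.77e-05 with the block), with lower arrays in pair 2 under both labels. Incenp, the scaffold, read 7920 and 8700 against 3716 and 5642 (-0.86), and Cdca8, which encodes borealin, 5476 and 6061 against 2794 and 3617 (-0.85).

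Of the 9 centromere and kinetochore genes, which link chromosomes to spindle fibres, 1 fell and 7 did with the block. The NDC80 complex, the part that grips microtubules, has 4 subunits and all are members. Nuf2 went from 1553 and 1236 to 537 and 575 (-1.29 ± 0.24, limma adjusted p = 0.0410). Spc25 read 1351 and 1958 against 596 and 742, and Spc24 784.5 and 500.1 against 294 and 255. Ndc80 itself read 619 and 643 against 387 and 285 (-0.89 ± 0.27, limma adjusted p = 0.176, and 0.0127 with the block). The 4 subunits thus lay between -1.29 and -0.89, with no overlap of labels in any, an order that 21.1% of all genes had.

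At the centromere Cenpa stood out as the member nearest to 0. It encodes the histone variant that marks where the kinetochore forms, and read 3184 and 3260 against 2363 and 2508 (-0.40 ± 0.19 SE). It missed the threshold without and with the block (limma adjusted p = 0.463 and 0.111). Both labelled-deficient arrays were below both labelled-wild-type arrays, by 1.32-fold. On the mean of its probe sets the difference was 0.01. Cenpe, a kinetochore motor, read 957 and 1273 against 364 and 555, and Cenpf 1396 and 1838 against 716 and 939. Cenpk, an inner kinetochore subunit, read 911 and 553 against 333 and 274. Cenph, of the same inner group, was dim at 194 and 190 against 90.3 and 78.1, and was the other kinetochore gene that missed with the block (limma adjusted p = 0.0542).

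Of the 7 tested genes of spindle motors and spindle assembly 1 fell, and all 7 did with the block. Hmmr, a spindle pole protein, went from 1420 and 1620 to 587 and 676.5 (-1.24 ± 0.23, limma adjusted p = 0.0410), by almost the same amount in both pairs. Kif11, the motor that pushes spindle poles apart, read 1071 and 1363 against 533 and 572 (-1.11 ± 0.25, limma adjusted p = 0.0691). Tpx2, which activates Aurora A on the spindle, read 1334 and 1969 against 726 and 755 (-1.11 ± 0.26, limma adjusted p = 0.0792). With the block both passed (limma adjusted p = 0.000345 and 0.000215).

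Kif22, a motor on chromosome arms, read 7224 and 4630 against 2385 and 2885, the gene with the widest gap between its pairs (-1.59 and -0.68). The chromosome motor Kif4 read 829 and 663 against 382 and 414. Kif2c, which shortens microtubules at centromeres, read 1216 and 1786 against 705 and 879, and Nusap1, a bundling protein, 2352 and 3755 against 1526 and 1747. For Kif2c and Nusap1 the difference was larger in pair 2, and for Kif22 and Kif4 in pair 1.

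None of the 6 genes of the central spindle and cytokinesis passed without the block (limma; 6 at an unadjusted p below 0.05), and all 6 passed with it. Their log2 differences were the most alike of the larger role groups, from -1.09 to -0.97. Prc1, which bundles the central spindle, read 1956 and 2242 against 905 and 1043 (-1.09 ± 0.22, limma adjusted p = 0.0513). Anln, which encodes the contractile ring protein anillin, read 759 and 781 against 340.0 and 391 (-1.04 ± 0.25, limma adjusted p = 0.0859). The block brought them to limma adjusted p = 8.43e-05 and 0.00196.

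Kif23 and Racgap1 encode the partners that form centralspindlin. Kif23 read 1448 and 1072 against 708 and 557, and Racgap1 1394 and 1104 against 528 and 685. Ect2, the exchange factor that centralspindlin recruits, read 2164 and 1769 against 855 and 1043. Kif20a, a midzone motor, read 653 and 1167 against 359 and 521. On all of these the labels did not overlap, as for 21.1% of all genes in the same direction.

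Condensin folds mitotic chromosomes, and its subunits did not move as 1 unit. Of those outside the members, Ncaph and Ncapg2 stood at -1.03 and -1.12, and Ncapd3 and Ncaph2 at -0.13 and -0.19. Ncapd2 went from 2355 and 2196 to 1083 and 958 (-1.15 ± 0.22, limma adjusted p = 0.0410), and Ncapg read 1010 and 869.5 against 315 and 436.5 (-1.30). Smc2, a core ATPase, read 3295 and 6794 against 1926 and 3825 (-0.80 ± 0.41, limma adjusted p = 0.508, and 0.000963 with the block), and is the member whose labels overlap, since both arrays of pair 2 were higher.

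Smc4, the partner of Smc2 in the condensin core, was higher on the labelled-deficient arrays. It went from 11399 and 10098 to 14752 and 15953 (0.52 ± 0.17 SE), short of the threshold without the block (limma adjusted p = 0.196, and 0.0496 with the block). A second probe set read 10363 and 7255 against 14338 and 14574, and the other 2683 and 1938 against 5336 and 3895, with log2 differences of 0.74 and 0.99. All 3 probe sets thus put both labelled-deficient arrays above both labelled-wild-type arrays, and the brightest, which the choice of probe set took, showed the smallest difference. Tested among every probe set these 2 also missed the threshold (limma adjusted p = 0.196 and 0.146). The difference of Smc4 was above 0 under each of the 13 alternatives run.

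**Figure D3:**
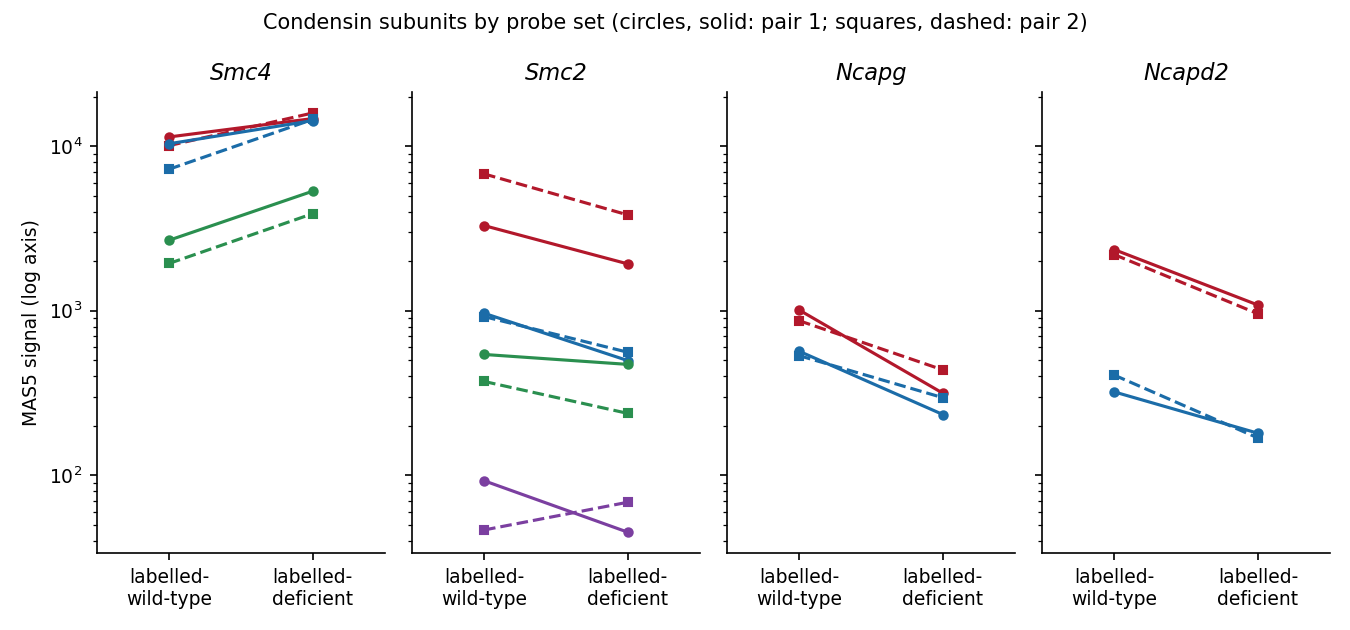
MAS5 signals (log axis) of condensin subunits on the labelled-wild-type and labelled-deficient arrays, with a line for each probe set above the filter in each pair and a colour for each probe set. All lines of Smc4 go up and all of Ncapg and Ncapd2 go down; levels of different probe sets cannot be compared.

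The genes that hold and release the chromatids were lower. Cdca5, which encodes sororin, a protector of cohesion, fell from 2967 and 3484 to 1211 and 1530 (-1.23 ± 0.23, limma adjusted p = 0.0371). Espl1, which encodes separase, the protease that cuts cohesin, read 740 and 567 against 305 and 296 (-1.07 ± 0.27, limma adjusted p = 0.102, and 0.00302 with the block).

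Besides the probe sets used, 46 others of 28 of these genes passed the filter. Of these 42 lay below 0 and 4 did not, with a median log2 difference of -0.84. The 4 were both others of Smc4, 1 of Cenpa (201 and 61.6 against 236 and 141, log2 0.61) and 1 of Cdca3 (98.9 and 74.5 against 116 and 73.6, log2 0.09). Among every probe set tested, 1 of the 46 passed, a second one of Cdca8 at 4723 and 4958 against 1971 and 2246 (limma adjusted p = 0.0445). The shares over every probe set are not given here. In the fit with 1 probe set per gene, 50.3% of all genes lay below 0 and 1.37% were called lower. Of the 48 probe sets used, 5 carry the suffix _x_at, which marks possible cross-hybridisation: those of Aurkb, Cdc20, Incenp, Kif22 and Kif2c. Other probe sets of these genes without that suffix went the same way, at 1405 and 1036 against 500 and 486 for Aurkb, 1223 and 2525 against 646 and 1216 for Cdc20, and 1018 and 902 against 611 and 498 for Incenp, although a dimmer set of Incenp overlapped (164 and 123 against 132 and 118). For Kif22 they read 913 and 902 against 319 and 503, and for Kif2c 236 and 297 against 118 and 151. These sets of Aurkb and Kif22 carry the suffix _s_at, which marks probes that match several transcripts. A set of Kif22 with neither suffix read 394 and 352 against 117 and 192. Another 5 of the probe sets used carry _s_at: those of Pbk, Nek2, Bub1b, Cdca8 and Prc1. Pbk had no other probe set.

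The pairs were compared to see whether the same genes also differ between the 2 sets of arrays. With genotype in the model, 2 of the 48 were higher in pair 2 (3.34% of all genes) and 1 was lower (4.23% of all genes), and 13 differed at an unadjusted p below 0.05, as did 21.5% of all genes. Smc2 was higher by 1.01 (limma adjusted p = 0.000438) and Cdc20 by 0.95 (0.00255), and Birc5 lower by 0.96 (pair 2 minus pair 1 -0.96, 0.00260). The pair difference of Cdc20 stood at 0.96 on its second probe set. That of Smc2 was 0.05 on its own second probe set, at 965 and 921 against 497 and 559, and -0.73 on another. Without the intensity trend 0 of the 48 passed in either direction. The median difference between genotypes was -1.12 in pair 1 and -1.03 in pair 2, with 30 genes lower by more in pair 1, 17 in pair 2 and 1 equal.

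**Figure D4:**
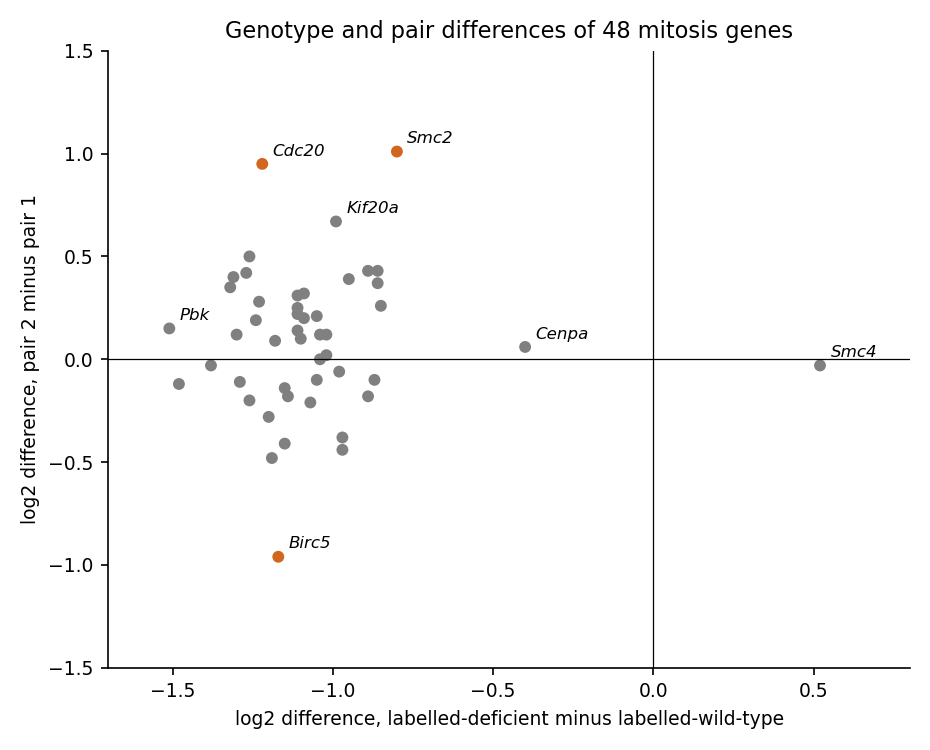
Log2 difference between genotypes (horizontal) and between pairs (vertical) of the 48 mitosis genes, each a point; orange points passed limma's threshold for the pair. Cdc20 and Smc2 lie near 1 and Birc5 near -1 on the vertical axis, and most other genes within 0.5 of 0.

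Other genes of cell division lay mostly below 0 as well. Of 67 tested 6 fell and 0 rose (limma; 40 lower and 1 higher at an unadjusted p below 0.05), and with the block 34 fell and 1 rose. Over all genes 1.37% fell, 6.66% fell with the block and 7.04% were lower at an unadjusted limma p below 0.05. The median of the 67 was -0.75, and 65 lay below 0 (50.3% of all genes). At least 1.5-fold lower in both pairs were 34 (5.77% of all genes). Trip13, which dismantles the checkpoint, went from 2482 and 2458 to 761 and 963.5 (-1.51 ± 0.23, limma adjusted p = 0.0204). Esco2, a cohesin acetyltransferase, read 502 and 318 against 149.5 and 117 (-1.48). At the other end stood Cdc25b, a phosphatase that activates cyclin-dependent kinases, at 1829 and 1251 against 2928 and 2096 (0.71 ± 0.27, limma adjusted p = 0.311, and 0.00423 with the block), and the kinetochore gene Zwint at 2055 and 3835 against 2597 and 4135 (0.22).

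Transcripts of the activators themselves did not pass the test. Foxm1 read 366 and 338 against 293.5 and 309.5 (-0.21 ± 0.27, limma adjusted p = 0.867), and Mybl2, which encodes B-MYB, 294 and 223 against 173 and 156 (-0.59 ± 0.31, limma adjusted p = 0.511). Both were chosen after their values were seen. These are differences in transcript signal, and protein was not measured.

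Further mitosis machinery was listed apart: subunits of the APC/C, cohesin, the augmin complex and others. Like the list of other cell division genes, it was chosen with earlier results of these data known. Its values beside those of the mitosis genes are therefore a description and not a test. Whether cells carry these transcripts through the whole cycle was not measured here. Of 50 tested 0 fell and 0 rose (limma), where 1.37% and 1.23% of all genes did. At an unadjusted limma p below 0.05, 4 were lower (7.04% of all genes) and 0 higher. With the block 3 fell and 1 rose (6.66% and 5.54% of all genes). The counts of lower genes were near those shares. The median of the 50 was -0.08, with 31 below 0 (50.3% of all genes). Zwilch, a kinetochore gene, read 726 and 876 against 271 and 432 (-1.18), and Nsl1 223 and 184 against 102 and 102 (-0.89). Nipbl, which loads cohesin, read 2590 and 1245 against 4310 and 1657 (0.57), and Pds5b 1514 and 1350 against 1790 and 1606 (0.24). CHR letters within 50 bases of the start were in 2 of their 48 windows and in 24 of the 60 windows of the other cell division genes.

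**Figure D5:**
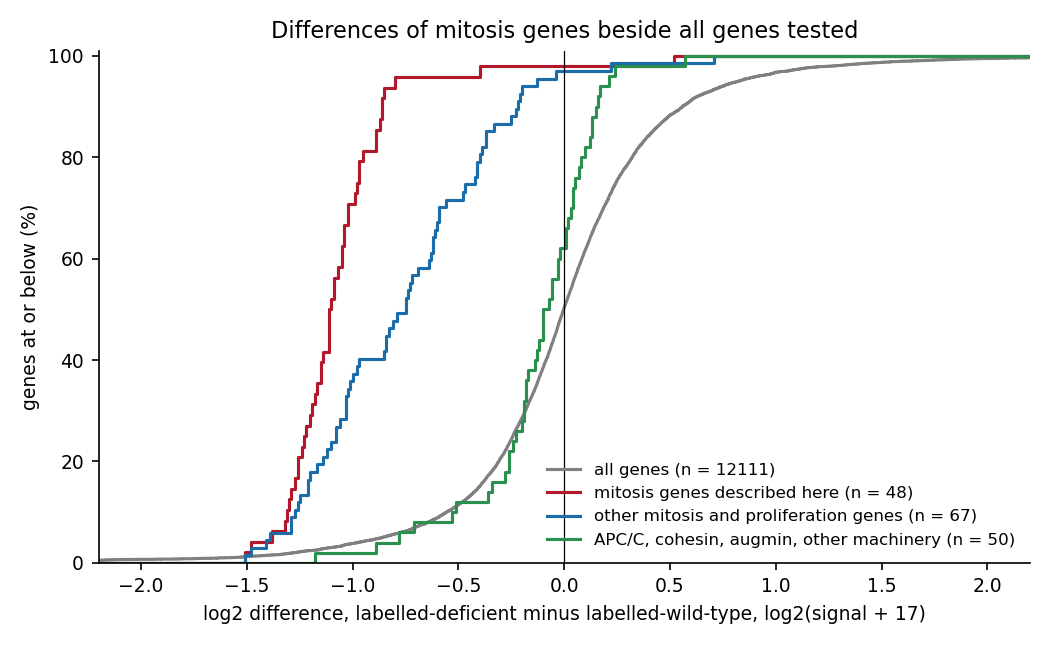
Cumulative share of genes (vertical, percent) at or below a log2 difference (horizontal, labelled-deficient minus labelled-wild-type) for the 48 mitosis genes, 67 other mitosis and proliferation genes, 50 genes of general machinery and all 12111 genes tested. The medians are -1.10, -0.75, -0.08 and 0.00.

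Markers of other spleen cells that can divide were read on the same arrays. Treg cell identity genes were present: Foxp3 read 6540 and 6285 against 6504 and 6056, and 0 of 7 T cell and Treg cell markers passed (limma; 0 at an unadjusted p below 0.05). The summed signal of 11 B cell and plasmablast markers was 11655 and 13165 against 11161 and 13342, and 0 of 10 passed (limma; 1 at an unadjusted p below 0.05). Xbp1, which other cells express too, made up most of that sum, at 6619 and 9264 against 6034 and 7259. With the block Ms4a1, which encodes CD20, was higher (1081 and 423 against 1611 and 998, limma adjusted p = 0.00343) and Cd22 lower (857 and 672 against 438 and 451, 0.0230). For 10 myeloid markers the summed signal was 7949 and 4684 against 9956 and 7361, and Csf1r made up most of that sum. Of 8 tested 0 passed the limma threshold (2 higher at an unadjusted p below 0.05). Of these 8, 4 lay above 0 and 4 below, with a median log2 difference of -0.06. With the block 2 of these were higher and 1 lower. Adgre1, which encodes the macrophage antigen F4/80, read 691 and 508 against 1538 and 978 (limma adjusted p = 0.000601 with the block), and Csf1r 4749 and 2987 against 6676 and 5165 (0.00804). Mpo, a gene of granulocyte precursors, was the lower one at 495 and 57.0 against 44.8 and 33.3 (0.0141). Labels overlapped for Lyz2, S100a8, Siglech, Cd14 and Itgax (log2 -0.14, -0.98, -0.36, 0.50 and 0.02). For 8 erythroid precursor markers the sum was 3008 and 2719 against 3844 and 3133. Tfrc made up most of that sum, at 2343 and 2048 against 2461 and 2098. Among the 6 tested, Gata1 alone rose (251 and 137 against 744 and 577, limma adjusted p = 0.0484). Over all genes 1.23% rose. Alas2 was higher without passing (log2 1.12, limma adjusted p = 0.355). Labels overlapped for Klf1, Epor, Slc4a1 and Tfrc (log2 -0.24, 0.11, 0.02 and 0.05). The haemoglobin gene Hba-a1 was below the filter.

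Of the markers of CD8 T cells and natural killer cells, 2 of 5 tested fell as the mitosis genes did (limma, where 1.37% of all genes fell). These 2 carried most of the list's sum. That sum over 7 genes was 4301 and 4584 against 1486 and 1431. Cd160 (2569 and 2668 against 589 and 361) and Eomes (1036 and 1425 against 356 and 310) were those 2, both of which T cells other than CD8 T cells can express. The defining CD8 genes did not pass: Cd8a read 232 and 143 against 149 and 219 (log2 -0.01) and Cd8b1 286 and 224 against 274 and 444 (0.44). The other tested marker, Klrk1, was lower without passing, at 133 and 95.5 against 78.6 and 64.8 (-0.55, limma adjusted p = 0.634). Its labels did not overlap, an order that 21.1% of all genes had. The natural killer cell genes Ncr1 and Klra8 were below the filter. The part of any of these cell types in the mitosis result was not tested.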

How the data were processed

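Gene expression was read from 4 arrays of mouse splenic Treg cells, 2 per genotype label. The authors deposited linear intensities per probe set; the submitters' processing notes name MAS5, and the sources used here do not give its version or settings. The 2% trimmed mean was 500.003 on each of the 4 arrays, and no further scaling was applied. Of 45101 probe sets 64 were controls; of the rest the platform annotation gave 1 symbol for 34945, several for 932 and none for 9160.

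Signals were tested as log2(signal + 17), 17 being the 25th percentile of all values, which understates differences of dim genes. Probe sets with a mean log2 value under the 40th percentile, equal to a signal of 40.5, were dropped, and each gene was read from the probe set with the highest mean signal. All 12111 genes were fitted with limma 3.58.1 in R 4.3.3 (lmFit and eBayes, variance trended on intensity). Tests were two-sided and adjusted by Benjamini-Hochberg over all genes; the script was tested on simulated data. The fit had 2 residual degrees of freedom and borrowed 5.67 from the shared variance model; an exact test of 2 against 2 arrays cannot go below p = 0.333. The number of arrays limits the precision.

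The pairing comes from the titles. Deviations from group means correlated between same-numbered arrays (Pearson r = 0.368 across genes, which are not independent replicates). Adding the pair as a block leaves 1 residual degree of freedom, and that fit borrowed 19.14 from the shared variance model. Its p-values thus rest mostly on that model and not on the spread of each gene over these arrays.

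Named were all 50 members, with SE and adjusted p for those past the threshold, a set of role-defining ones, the member nearest to 0 and any above 0, and the 2 lowest and 2 highest genes of the pathway lists. The members and lists were chosen with earlier results of these data known. Alternatives covered the block, pseudocount, filter, normalization, probe set choice, variance model and each array left out.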

Additional observations from a re-analysis of the deposited data

How the results depend on the processing

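Of 623 single-gene values under 13 alternatives, 622 kept their sign; Cenpa turned to log2 0.01 on the mean of its probe sets. The count of the 48 mitosis genes called lower went from 12 to 45 with the replicate block, 2 without the filter, 4 when every probe set was tested and 0 without the intensity trend, and lay between 0 and 19 when 1 array was left out. All 12 were called again with the block, with a pseudocount of 76, the median signal, and under a 60th percentile filter. The count called higher went from 0 to 1 with the block. Over both lists of other mitosis genes the 6 lower calls became 37 with the block, 10 on the mean of the probe sets, 1 without the filter, 2 when every probe set was tested and 0 without the trend (0 to 11 with 1 array left out), and 0 higher calls became 2 with the block. Over all genes, 166 lower and 149 higher became 806 and 671 with the block, 45 and 46 without the filter and 55 and 58 without the trend, with ranges of 82 to 259 and 70 to 270 when 1 array was left out. The median log2 difference of the mitosis genes, -1.10, moved to -1.02 with the median as pseudocount and -1.01 on the mean of the probe sets. Between pairs, the 2 genes higher in pair 2 became 1 when every probe set was tested and 0 without the trend, and the 1 lower became 0 without the trend. The cause of these changes was not tested.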
